A study of Mus musculus with 6 samples.

Results

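The methylated DNA of 37 collagen genes was examined, which are all protein-coding genes on chromosomes 1 to 19 named Col, a number, a and a number in GENCODE vM1 (mouse assembly mm9) except type IV, out of 21418 in all. Of these 37 genes, 36 held at least 1 peak in at least 1 sample, and Col20a1 held none. Mouse primary mesangial cells, at passages 3 to 6 in high-glucose medium (25.5 mM) with 20% fetal bovine serum, had been treated with TGF-β1 (10 ng/ml for 72 h) or kept as control, with 3 samples in each group. The labels do not describe the control further and do not say whether the samples were separate cultures, so p-values measure only the spread between these samples. Methylated DNA immunoprecipitation sequencing (MeDIP-seq) pulls down DNA fragments with an antibody against methylated cytosine, and a peak is a place where such fragments pile up above the local background. Peak lists hold no expression values, so the identity of the cells rests on their label.

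Collagens are proteins of the extracellular matrix built from 3 chains that wind into a triple helix of repeated glycine-X-Y units. Fibrillar collagens (types I, II, III, V, XI, XXIV and XXVII) form the load-bearing fibrils, the fibril-associated collagens decorate them, type VI forms beaded filaments around cells, types VIII and X form networks, type VII anchors epithelia, and the transmembrane and multiplexin types sit at cell surfaces and basement membranes. Mesangial cells lay down the matrix of the glomerulus, and TGF-β1 is a well-known inducer of matrix genes in them. In mammalian DNA, methylation falls mainly on cytosines that are followed by guanine (CpG), CpG-dense promoters are usually free of it, and gene bodies often carry it.

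The sequences behind the main results are shown here from the mm9 reference, each 5′ to 3′ on the strand of its gene and with CpG in capitals. The first is the middle of the collagen region with the highest pileup, in a coding exon of Col6a3 (240 bp, 11 CpG). The second is the middle of the promoter peak of Col9a2, called in every sample. Next are the 300 bp before the annotated 5′ ends of Col1a1 and Col5a1, both of which lacked a promoter peak, with 7 and 30 CpG. A further pair, in intron 4 of Col5a1 and around coding exon 115 of Col7a1, was called in the 3 TGF-β1 samples only.
Col6a3 coding exon, chr1:92724516-92724755, minus strand: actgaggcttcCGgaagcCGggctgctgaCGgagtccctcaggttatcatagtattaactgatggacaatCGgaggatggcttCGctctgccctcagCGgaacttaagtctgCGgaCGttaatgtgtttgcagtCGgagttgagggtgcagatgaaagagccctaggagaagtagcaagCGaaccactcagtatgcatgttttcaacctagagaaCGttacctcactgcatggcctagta
Col9a2 promoter peak, chr4:120711495-120711734, plus strand: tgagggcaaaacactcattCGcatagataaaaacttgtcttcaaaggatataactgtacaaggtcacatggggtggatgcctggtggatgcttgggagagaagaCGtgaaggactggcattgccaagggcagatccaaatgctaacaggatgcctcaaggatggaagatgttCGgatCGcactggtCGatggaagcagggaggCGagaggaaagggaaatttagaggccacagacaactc
Col1a1 upstream, chr11:94797238-94797537, plus strand: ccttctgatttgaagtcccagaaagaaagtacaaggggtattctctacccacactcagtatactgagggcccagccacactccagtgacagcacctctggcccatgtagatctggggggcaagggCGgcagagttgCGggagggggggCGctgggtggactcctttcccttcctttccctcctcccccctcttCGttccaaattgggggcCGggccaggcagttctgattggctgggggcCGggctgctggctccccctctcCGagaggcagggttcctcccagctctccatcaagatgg
Col5a1 upstream, chr2:27741645-27741944, plus strand: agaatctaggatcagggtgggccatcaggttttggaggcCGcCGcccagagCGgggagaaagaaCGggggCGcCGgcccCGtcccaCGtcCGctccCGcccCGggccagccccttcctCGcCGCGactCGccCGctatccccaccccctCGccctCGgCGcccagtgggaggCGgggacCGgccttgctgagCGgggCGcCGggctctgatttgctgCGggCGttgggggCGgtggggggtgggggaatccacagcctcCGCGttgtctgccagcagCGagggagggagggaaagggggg
Col5a1 intron 4, chr2:27789430-27789669, plus strand: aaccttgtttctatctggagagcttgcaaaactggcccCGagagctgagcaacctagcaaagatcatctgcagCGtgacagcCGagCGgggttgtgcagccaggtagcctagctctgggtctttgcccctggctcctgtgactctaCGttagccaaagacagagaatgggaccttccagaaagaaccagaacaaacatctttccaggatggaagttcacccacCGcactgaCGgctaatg
Col7a1 exon 115, chr9:108885274-108885513, plus strand: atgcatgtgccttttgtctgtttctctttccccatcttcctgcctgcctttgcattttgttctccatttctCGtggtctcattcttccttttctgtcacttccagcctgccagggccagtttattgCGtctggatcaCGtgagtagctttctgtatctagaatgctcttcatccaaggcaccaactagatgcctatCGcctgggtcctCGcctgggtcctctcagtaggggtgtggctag

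The depth was 9407103 to 11494356 reads in the control samples and 12634300 to 13291419 in the TGF-β1 samples, and in counts of peaks a depth effect and a treatment effect cannot be told apart. A region without a peak was only below the calling threshold in that sample, and its methylation is unknown. Control replicate 1 and TGF-β1 replicate 3 stood apart together. Of the 15 ways in which a region can be called in exactly 4 of the 6 samples, the absence from these 2 libraries was the most common (3106 regions, against 421 to 2298 for the other 14 patterns), and its regions had the highest median CpG density (2.98 per 100 bp, against 2.03 to 2.45). The same pattern held 11 of the 30 collagen regions called in 4 samples, 6 of them in coding exons of Col1a1, Col6a1 (2 regions), Col6a2, Col6a3 and Col15a1. Its part in the results below was not tested, and the counts without both libraries are given beside those that it moved.

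To compare genes of different size, peaks whose summit lay in the gene or within 2000 bp of it were divided by that window. Per sample, the 37 collagens together held 163, 183 and 204 peaks in control and 191, 201 and 197 peaks in TGF-β1 samples. This came to 0.429 ± 0.048 peaks per 10 kb in control and 0.460 ± 0.0118 in TGF-β1 samples (SD, n = 3), and the groups overlapped because control replicate 3 was the highest of the 6. Without control replicate 1, the lowest, the difference of 0.0304 fell to 0.00663. Scaled to 10000000 reads, the order turned, at 0.414 against 0.357 peaks per 10 kb. All protein-coding genes together had 0.501 peaks per 10 kb in control and 0.567 in TGF-β1 samples. The collagen density was therefore 0.859, 0.860 and 0.851 times that of all genes in the control samples and 0.801, 0.843 and 0.790 times in the TGF-β1 samples. Every TGF-β1 sample was below every control sample in this ratio, with a difference of -0.0455 (-0.0169 among peaks with a fold enrichment of at least 5), which is given as a description without a test because the collagens are a chosen list.

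**Figure D1:**
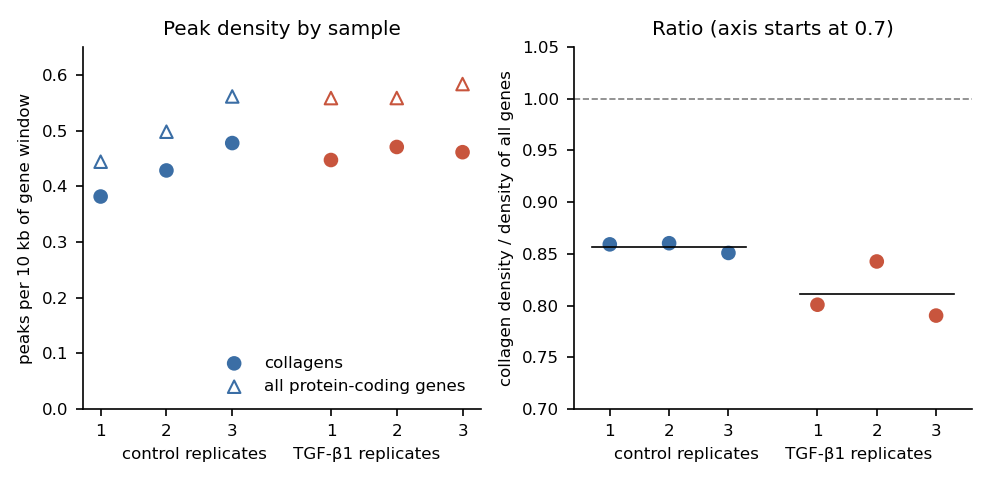
Peaks per 10 kb of gene window for the collagens (filled circles) and all protein-coding genes (open triangles) in each sample on the left, and their ratio on the right, with the group means as lines. Collagens were below all genes in each of the 6 samples, and the ratio was 0.790 to 0.843 in TGF-β1 and 0.851 to 0.860 in control samples.

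Between single collagens the density ranged from 0 to 1.65 peaks per 10 kb, and the median gene (0.506) was close to the median of all protein-coding genes (0.510). The highest densities were found in Col10a1 (1.65), the network-forming collagen of growth-plate cartilage, and in Col6a3 (1.56) and Col6a1 (1.48) of the beaded filaments. Next were the fibril-associated Col16a1 (1.26) and Col2a1 (1.11) of cartilage fibrils. Col10a1 had a mean of only 1.83 peaks per sample and lies inside another gene, Nt5dc1. The lowest densities were in Col20a1 (0), Col5a3 (0.034), Col28a1 (0.067), Col25a1 (0.126), a transmembrane collagen of neurons, and Col22a1 (0.137). Among the genes of type V, which regulates fibril assembly, Col5a1 had 0.859 peaks per 10 kb, Col5a2 0.175 and Col5a3 0.034. Long collagen genes had fewer peaks per 10 kb than short ones (Spearman rho = -0.397 over 37 genes), whereas over all 21418 genes rho was 0.2018. The 2 sets are unlike, since 16229 of all genes but 36 of the 37 collagens held a peak. The median gene length was 15.5 kb over all genes and 104.6 kb in the collagens. The density followed the CpG content of the window in both sets (rho = 0.577 over the collagens and 0.496 over all genes). Neighbouring genes share sequence and all genes share the 6 libraries, so these correlations across genes are descriptions.

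**Figure D2:**
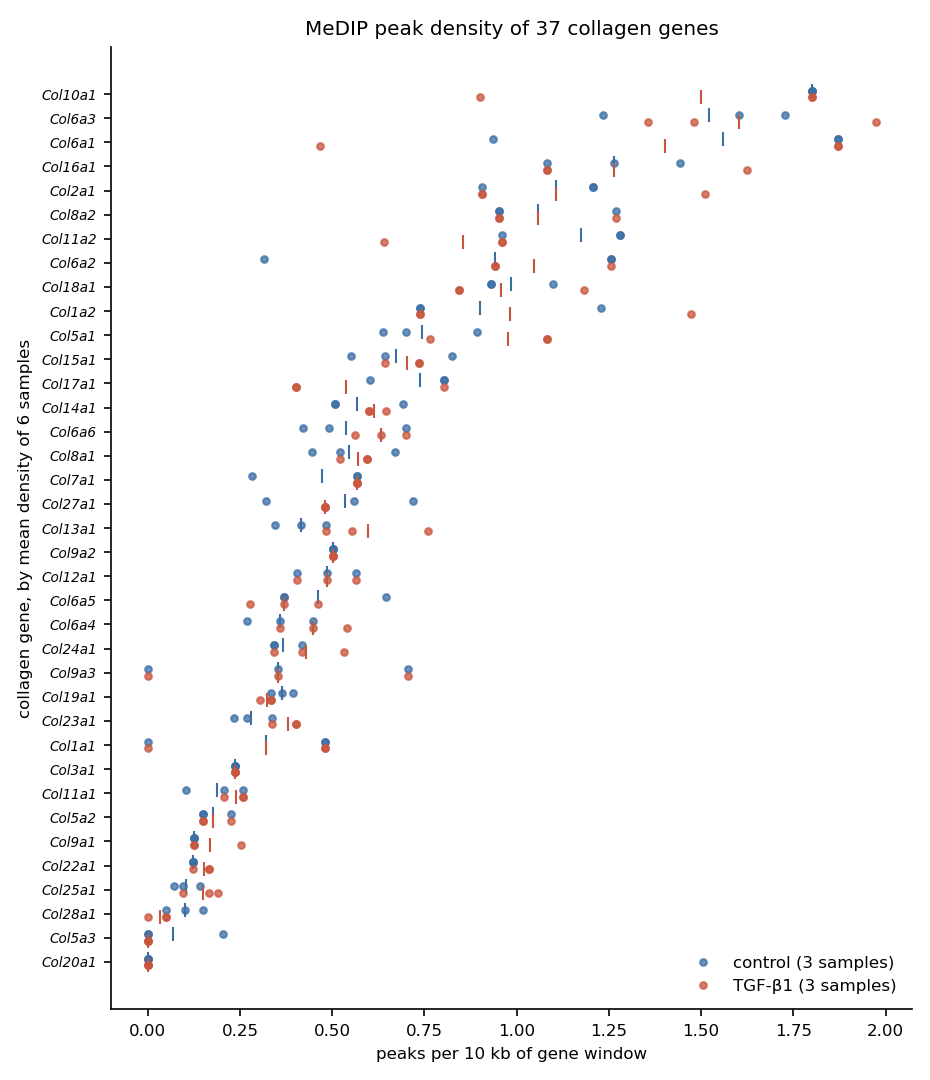
Peaks per 10 kb of gene window (horizontal axis) for each of the 37 collagen genes (vertical axis, ordered by the mean of 6 samples). Each point is a sample, blue for control and red for TGF-β1, and the ticks are group means. Col10a1 and Col6a3 are at the top, Col20a1 has no peak, and within most genes the colours overlap.

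By subfamily, the 6 beaded filament genes had 0.731 peaks per 10 kb over the 6 samples, the 2 multiplexin genes Col15a1 and Col18a1, whose C-terminal fragments include endostatin, 0.836, and the 3 network-forming genes 0.715. The 11 fibrillar genes had 0.453, the 9 fibril-associated genes 0.386 and the 4 transmembrane genes 0.280. The fibrillar genes were at 0.431 ± 0.0728 in control and 0.474 ± 0.0191 in TGF-β1 samples (SD, n = 3), a difference smaller than the control SD. The transmembrane genes went from 0.244 ± 0.0167 to 0.317 ± 0.0568 peaks per 10 kb, with 22, 21 and 24 against 23, 32 and 32 peaks, and overlapped in TGF-β1 replicate 1. Scaled to 10000000 reads, they were at 0.235 against 0.246. In multiplexin and network-forming genes the unscaled group means were equal, and scaled to reads they were 0.803 against 0.647 and 0.690 against 0.555.

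The fibrillar chains of types I and III are those most often linked to fibrosis. Col1a1, the α1 chain of type I, had 0, 1 and 1 peaks in control and 1, 1 and 0 in TGF-β1 samples, all in 1 region of 1039 bp with 36 CpG that spans coding exon 50 of 51. Its pileup was 22 and 55 reads in control replicates 2 and 3 and 19 and 43 in TGF-β1 replicates 1 and 2, so it was called in the same number of samples in each group and is one of the regions absent from the 2 libraries that stood apart. Col1a2, its partner chain, was denser in peaks than the median collagen (0.941 per 10 kb) and had 3, 3 and 5 peaks in control and 3, 3 and 6 in TGF-β1 samples. Of these, 2, 2 and 3 in control and 2, 2 and 4 in TGF-β1 samples had their summit in coding sequence. Col3a1, the chain of type III, had exactly 1 peak in every sample, in intron 19, with pileups of 28, 42 and 47 reads in control and 40, 35 and 38 in TGF-β1 samples. That region was among the 3 collagen regions of highest pileup that all samples shared. Its centred log2 fold change was -0.24, with an adjusted p of 0.999 by limma.

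Type VI held many of the coding peaks. Of the 57 collagen regions with the summit in a coding exon, 26 were in the 6 type VI genes, and Col6a3 alone held 9. In Col6a3, 4, 5 and 8 coding peaks were called in control and 6, 7 and 5 in TGF-β1 samples, the most of any collagen. Over the 6 samples, 43.1% of type VI peaks had a coding summit, against 11.7% in fibrillar and 9.55% in fibril-associated genes. Outside coding sequence the type VI genes had 0.447 peaks per 10 kb, near the 0.420 of the fibrillar genes. The strongest shared region of all collagens was in an exon of 618 bp of Col6a3 (chromosome 1, 92724448 to 92725188, 21 CpG), with pileups of 48, 39 and 52 reads in control and 37, 61 and 62 in TGF-β1 samples. The groups overlapped there, and the log2 fold change was -0.05 (adjusted p = 0.999, limma).

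Across the 37 genes, 16.5% ± 3.68 of the peaks in control and 16.4% ± 1.88 in TGF-β1 samples (SD, n = 3) had a coding summit, and coding sequence held 1.85 peaks per 10 kb against 0.386 outside it. Per CpG the gap was smaller, with 6.86 peaks per 1000 coding CpG and 4.19 per 1000 other CpG. Over all protein-coding genes these were 7.77 and 4.82, so the ratio of coding to other peaks per CpG was 1.63 in the collagens and 1.61 in all genes. What differed was the exon size. Collagen helices are encoded largely by short exons whose unit is 54 bp, and 457 of the 1713 exons in the longest transcripts of the 37 genes had exactly that size. The split of exons by size was chosen after the regions had been seen. Coding bases in exons of up to 162 bp made up 60.0% of collagen coding sequence and held 28.6% of its coding peaks, at 0.882 peaks per 10 kb, against 2.09 in such exons of all genes. Exons of over 300 bp made up 26.8% and held 57.7%, at 3.98 peaks per 10 kb, against 2.21 in all genes. The first ratio was below 1 in 6 of 6 samples (0.324 to 0.547) and the second above 1 in 6 of 6 (1.64 to 1.92). CpG content differed less, at 25.4 and 30.7 CpG per kb in small and large collagen exons and 25.8 and 32.0 in those of all genes. Leaving type VI aside, the other 31 genes had 0.815 peaks per 10 kb in small exons, below all genes in 6 of 6 samples. In large exons they had 2.68, against 2.21 in all genes, and were above all genes in 5 of 6 samples (ratios 0.661 to 1.49, mean 1.23), with TGF-β1 replicate 1 below. These values are descriptions across exons, and both groups of samples showed them, with 3.87 ± 1.34 in control and 4.09 ± 0.830 in TGF-β1 samples (SD, n = 3) in large exons.

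**Figure D3:**
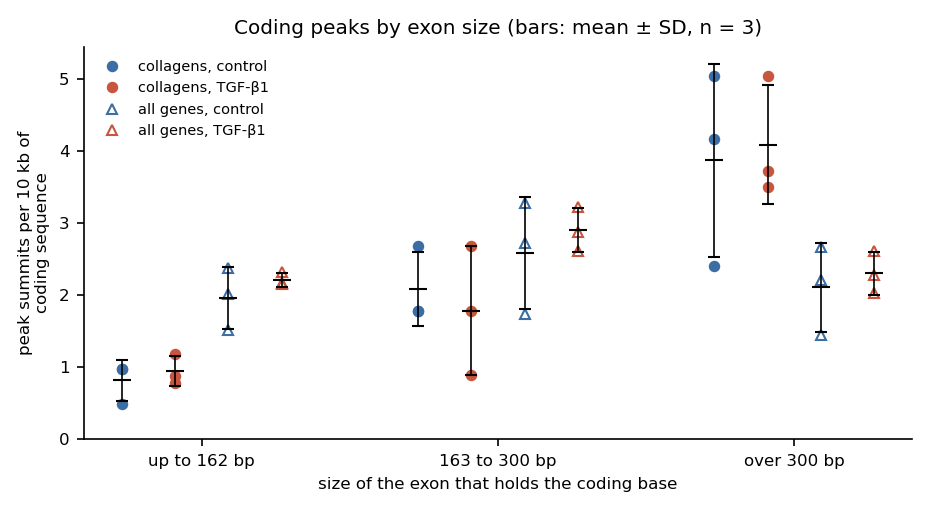
Peak summits per 10 kb of coding sequence (vertical axis) by the size of the exon that holds the base (horizontal axis), for collagens (filled circles) and all protein-coding genes (open triangles). Points are samples, blue for control and red for TGF-β1, and bars give the mean ± SD of 3 samples. In exons of up to 162 bp the collagens lie below all genes, and in exons of over 300 bp above them.

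At the promoter, taken from 1000 bp before to 500 bp after the annotated 5′ end, only Col9a2 and Col6a3 had a peak in any sample. That is 5.41% of the 37 genes, against 10.9% of all protein-coding genes. Col9a2, a fibril-associated chain of cartilage, had its only peak there in all 6 samples, with the summit at -375 bp from the 5′ end (chromosome 4, 120711182 to 120711839, 11 CpG). Its pileups were 22, 14 and 19 reads in control and 27, 13 and 23 in TGF-β1 samples, which overlapped (log2 fold change -0.07, adjusted p = 0.999, limma). The Col6a3 promoter peak was called in control replicate 1 and TGF-β1 replicates 2 and 3. Promoters were also sorted by CpG density (high: a 500 bp window with an observed/expected ratio of at least 0.75 and a GC content of at least 55%, low: all windows below 0.48, intermediate: the rest). None of the 10 high-density collagen promoters had a peak, among them Col5a1, Col15a1 and Col8a2, and 6.95% of such promoters did over all genes. Of the 11 intermediate ones 1 had a peak (24.6% over all genes), and of the 16 low ones, which include Col1a1, Col1a2 and Col3a1, 1 had a peak (8.56%). These counts depended on the window and the threshold. With peaks assigned by any overlap, or with the promoter taken as the 2000 bp upstream, 5 collagens had a promoter peak, among them the high-density promoters of Col25a1 and Col12a1. At a -log10 q or a fold enrichment of at least 5, no collagen had a promoter peak in all 6 samples. Counted from the 5′ end of any protein-coding transcript, Col8a2 and Col16a1 joined Col9a2 as genes with a promoter peak in all samples, and Col1a2 had one in at least 1 sample.

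Most collagen regions lay in introns (263 of 337), and 57 lay in coding exons, 5 in untranslated regions, 5 within 2000 bp upstream and 7 within 2000 bp downstream. In length (median 383 bp), CpG density (2.38 per 100 bp) and the share called in all 6 samples (24.0%), they were close to all regions (380 bp, 2.37 and 24.5%). Only 5 of them overlapped another protein-coding gene, including both regions of Col10a1, which lies inside Nt5dc1, so their peaks cannot be assigned to 1 of the 2 genes. Of the remaining named genes of the matrix, Col8a1 had 6, 7 and 9 peaks in control and 8, 7 and 8 in TGF-β1 samples, Col8a2 3, 4 and 3 and 4, 3 and 3, and Col15a1 6, 7 and 9 and 8, 7 and 8. Col18a1 had 11, 11 and 13 against 10, 10 and 14, Col6a1 2, 4 and 4 against 4, 4 and 1, and Col6a2 1, 4 and 4 against 4, 3 and 3. Col7a1 had 2, 2 and 1 against 2, 2 and 2 peaks, Col5a2 2, 3 and 2 against 3, 2 and 2, and Col5a3 1 peak in all, in control replicate 3. In each of these genes the groups overlapped.

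To ask whether TGF-β1 treatment moved the number of peaks in a gene, counts were first compared without scaling. In 17 collagens the mean was higher in TGF-β1, in 10 lower and in 10 equal, Col20a1 without a peak among them. This split is not given over all genes, whose peaks per 10 kb also rose, from 0.501 in control to 0.567 in TGF-β1 samples. None of the 36 collagens with a peak had counts that did not overlap in either direction. Over all genes with a peak, the TGF-β1 counts were entirely higher in 3.93% and entirely lower in 0.345%. The largest difference in mean was in Col5a1, with 10, 14 and 11 peaks in control and 17, 17 and 12 in TGF-β1 samples, a rise of 3.67 that was larger than either SD (2.08 and 2.89), while TGF-β1 replicate 3 lay within the control range (exact two-sided permutation test, p = 0.2, where 3 against 3 samples allow no less than 0.1). Col23a1, a transmembrane collagen, had 8, 7 and 10 against 10, 12 and 12 peaks (exact permutation p = 0.2), and Col13a1 7, 5 and 6 against 7, 11 and 8 (exact permutation p = 0.2). In both, 1 sample of each group tied. For Col5a1 the means per 10000000 reads were closer, at 11.4 in control and 11.9 in TGF-β1 samples. On this scale Col23a1 had 7.96 against 8.79 and Col13a1 5.77 against 6.74, and in each of these genes the groups overlapped.

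Per 1000000 reads, no collagen was entirely higher (1.77% of all genes) and 10 of 36 (27.8%) were entirely lower (15.8% of all genes), namely Col3a1, Col9a2, Col10a1, Col11a2, Col12a1, Col14a1, Col17a1, Col18a1, Col19a1 and Col28a1. Col3a1 and Col9a2 had 1 peak in every sample, so their scaled counts follow the depth alone. Without scaling, Col12a1 had 6, 5 and 7 peaks in both groups, and the mean of Col14a1 was higher in TGF-β1 (13.3 against 12.3). In the other genes named, the unscaled mean was lower in TGF-β1 samples. The limma test over 12291 genes, on log2 (peaks + 0.5) centred on each sample's median, called 0% of genes at an adjusted p below 0.05. At an unadjusted p below 0.05 it had 737 genes, 5.35% of those tested lower and 0.643% higher. The centring medians were 2, 2 and 3 peaks per gene in control and 3 in each TGF-β1 sample. This lowered the log2 fold change of every gene by the same amount. Col3a1 and Col9a2, with 1 peak in every sample, thus had -0.32. The median of all genes was -0.17 with this shift included. Of the 34 collagens tested, 4 (11.8%) had an unadjusted p below 0.05 and all were lower, with the shift from the centring included in their values. They were Col11a2 (3, 4 and 4 against 3, 2 and 3 peaks, log2 fold change -0.73 ± 0.236 SE), Col28a1 (2, 1 and 3 against 1, 1 and 0 peaks, -1.51 ± 0.493), Col17a1 (4, 3 and 4 against 2, 2 and 4 peaks, -0.77 ± 0.292) and Col19a1 (11, 13 and 12 against 11, 11 and 10 peaks, -0.48 ± 0.180), each with an adjusted p of 0.691. Without control replicate 3, the remaining control samples had a median of 2 peaks per gene and the TGF-β1 samples a median of 3. After centring on these medians, 1526 of 12258 genes and 4 of 33 collagens passed the adjusted threshold. These collagens were Col3a1 and Col9a2, with 1 peak in every sample, Col7a1 and Col19a1. In the 4 genes with an unadjusted p below 0.05, at least 1 TGF-β1 sample equalled a control sample in its unscaled count. The median log2 fold change was -0.29 over the collagens, below the -0.17 of all genes. Scaled by each sample's total of peaks instead, it was -0.15, against -0.02 for all genes. The gap was absent without control replicate 1 and TGF-β1 replicate 3 (both medians -0.24), and among peaks with a fold enrichment of at least 5 both medians lay above 0 (0.21 for the collagens and 0.19 for all genes).

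At the level of regions, 41744 regions were called in all 6 samples and tested by limma on log2 pileup, and 0% of them had an adjusted p below 0.05, while 2.22% were lower and 1.96% higher at an unadjusted p below 0.05. Among the 81 collagen regions, 0 passed the adjusted threshold and 2 (2.47%) had an unadjusted p below 0.05, both lower. The first was in intron 2 of Col10a1 (chromosome 10, 34113501 to 34113932), with 28, 23 and 28 reads in control and 23, 22 and 20 in TGF-β1 samples (log2 fold change -0.50 ± 0.210 SE, adjusted p = 0.999). Without scaling to depth, the TGF-β1 pileups were equal to or below the lowest control pileup. The second was in intron 20 of Col24a1 (chromosome 3, 145055176 to 145055822), with 20, 26 and 24 against 18, 21 and 20 reads (-0.46 ± 0.215, adjusted p = 0.999), where the groups overlapped. Without control replicate 1 and TGF-β1 replicate 3, the log2 fold change in Col10a1 was -0.29, and without control replicate 2 that in Col24a1 was -0.31. Next came coding exons of Col6a4 (-0.42) and Col6a6 (-0.41).

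In the other direction, intron 13 of Col14a1, which codes for a fibril-associated collagen, had 22, 12 and 11 reads in control and 20, 22 and 28 in TGF-β1 samples (0.47 ± 0.247 SE), and the groups overlapped through control replicate 1. Its log2 fold change was 0.84 without that sample and 0.19 without control replicate 3. The region downstream of Col22a1 had 34, 28 and 24 against 50, 38 and 41 reads (0.37 ± 0.200), and did not overlap before centring. This value was 0.56 without control replicate 1, 0.15 without control replicate 3, 0.22 without TGF-β1 replicate 1, and 0.63 without control replicate 1 and TGF-β1 replicate 3 together. Regions in intron 14 of Col19a1 (0.38) and downstream of Col6a6 (0.37) followed, and all 4 had an adjusted p of 0.999. Over the 81 regions, 32 had a log2 fold change above 0 and the median was -0.05.

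**Figure D4:**
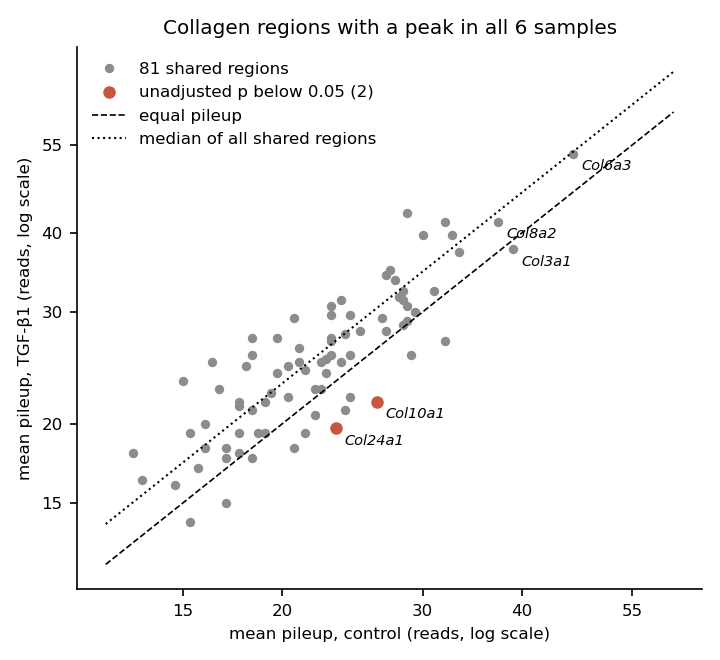
Mean pileup in TGF-β1 samples (vertical axis, reads) against control samples (horizontal axis, reads, both on log scales) for the 81 collagen regions called in all 6 samples. The dashed line marks equal pileup and the dotted line the median ratio of all 41744 shared regions (1.16). Of the 81 regions, 68 lie above the dashed line, as 84.0% of all shared regions do, and the 2 red points of Col10a1 and Col24a1 lie below it.

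Regions called in every sample of 1 group and in none of the other were few. There were 6 collagen regions in the TGF-β1 samples only (1.78% of 337, against 0.948% of all regions) and 2 in the control samples only (0.593%, against 0.233%). Of the TGF-β1 regions, 2 were in Col5a1, in intron 4 (chromosome 2, 27789340 to 27789723), with pileups of 18, 21 and 23 reads, and in intron 60 (27876948 to 27877371), with 15, 19 and 14 reads. The others were in intron 5 of Col14a1 (22, 17 and 23 reads), intron 2 of Col23a1 (16, 18 and 15), intron 39 of Col11a1 (16, 14 and 15) and coding exon 115 of 119 of Col7a1 (15, 13 and 16). None of these pileups was above the median pileup of its sample (22, 22 and 23 reads), and most were below it. The lowest pileups called in the TGF-β1 samples were 9, 9 and 10 reads. The control regions were in intron 27 of Col23a1 (19, 12 and 12 reads) and in intron 6 of Col28a1 (14, 21 and 13 reads). Over all collagens 6 of 337 regions (1.78%) held no CpG, and 0.943% of all regions on chromosomes 1 to 19. Without control replicate 1 and TGF-β1 replicate 3, 9 collagen regions were called only in TGF-β1 and 9 only in control samples. Fewer samples must concur in this setting, and no share over all regions is given for it, so these counts are not compared with all regions.

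**Figure D5:**
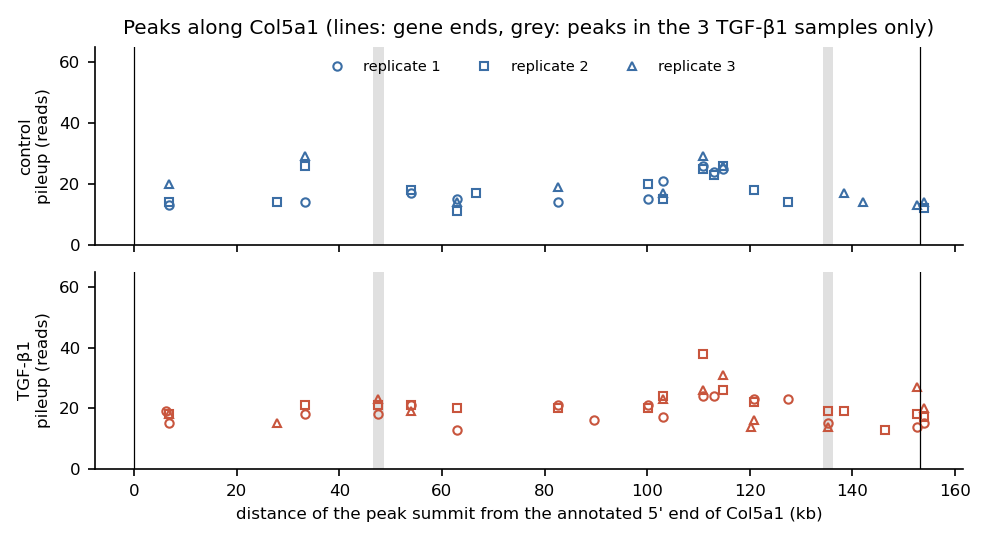
Pileup in reads (vertical axes) of each peak along Col5a1, by the distance of its summit from the annotated 5′ end in kb (horizontal axis), for control (top) and TGF-β1 samples (bottom). Symbols mark replicates, lines the gene ends and grey bands the regions in introns 4 and 60, which were called in the 3 TGF-β1 samples only. The 24 regions of the gene lie along its whole length, and 3 were called in all 6 samples.

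The enzymes, chaperones and receptors that process or bind collagen were taken from a list of 36 genes, of which 35 were found. Their median density was 0.766 peaks per 10 kb. Of the 34 tested by limma, 10 had a log2 fold change above 0. The median was -0.18, against -0.17 over all genes, with the shift from the centring included in both. By limma, 0 passed the adjusted threshold (smallest adjusted p = 0.691) and 2 had an unadjusted p below 0.05, both higher (0.643% of all genes tested were). These were Leprel1, a prolyl 3-hydroxylase (1, 1 and 1 against 2, 3 and 3 peaks), and Pcolce2, an enhancer of procollagen C-proteinase (2, 3 and 3 against 5, 5 and 6 peaks). Without scaling, the counts of both were entirely higher in TGF-β1 samples, as were those of Itga1, Adamts3 and Plod2, and those of no gene were entirely lower. That is 5 of the 35 genes higher, against 3.93% of all genes with a peak. Per 1000000 reads Leprel1 and Pcolce2 were entirely higher (1.77% of all genes were), and Glt25d1 and Ppib were entirely lower (15.8% of all genes were). Ppib had 1 peak in every sample, so its scaled count follows the depth alone.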

How the data were processed

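Peak lists from MeDIP-seq were used for 3 control and 3 TGF-β1 samples, grouped by the titles in the labels. As the study's methods and the headers state, the authors mapped unique reads to mm9 with BWA, counted reads with the same start once and called peaks in each sample with MACS2 2.1.0.20150731 at a q of 0.01 without an input sample. Pileup, as deposited, is a signal: how many extended reads cover the summit, with no scaling to depth. Fold enrichment, as deposited by the authors, is a ratio to the local background. The -log10 q deposited for each peak served for a stricter threshold only.

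Peaks were assigned to genes by their summit and joined into regions by an overlap of at least 1 bp, which gave 170444 regions, as did bedtools 2.31.1. Genes and sequence came from NCBIM37 (mm9) with GENCODE vM1. Counts per gene (mean of at least 1 peak, pseudocount 0.5) and the highest pileup per region were compared on the log2 scale with limma 3.58.1 in R 4.3.3 (trend, Benjamini-Hochberg adjustment over all features), each sample centred on its median. Tested on simulated data, the region test recovered 92.5% of 200 regions changed by a log2 fold change of 1 among 41744, with 7 false calls. The gene test recovered 53% of 200 genes among 12291, with 4 false calls. The simulated noise was normal with the same SD for every feature, unlike the small peak counts with ties here. These rates therefore check the code and do not give the power in these data. Single values were compared by exact permutation tests. Tables were handled with Python 3.11.15.

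The collagens, subfamilies and the processing list were chosen with earlier results of these data known. Named genes were the 14 collagens of interstitial matrix and vessels set by the plan, the 5 highest and 5 lowest densities, genes or regions that did not overlap between groups, the 4 regions of smallest p in each direction, and genes with promoter peaks in all samples. Alternatives were stricter thresholds (-log10 q or fold enrichment of at least 5), a depth-scaled floor of 0.850 reads per 1000000 reads, other scalings, windows and assignments, joining within 200 bp, leaving out samples, and the replicate number as a block. Symbols Col26a1 and Mia3 were not found in the annotation and are not analysed here. Reads outside peaks were not used here. The sequence of 1 region is not reported here.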

Additional observations from a re-analysis of the deposited data

How the results depend on the processing

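The difference in collagen density of 0.0304 peaks per 10 kb became -0.0662 when scaled to the mean depth of the 6 samples (-0.0568 per 10000000 reads) and -0.0229 when scaled to all peaks of the sample. The difference in the ratio to all genes, -0.0455, was -0.0169 at a fold enrichment of at least 5. The mean number of genes with a promoter peak, 0.333 higher in TGF-β1, was 1.33 higher within 2000 bp upstream and 2 higher with any overlap. Genes with counts entirely higher in TGF-β1, 0 as reported, were 2 at a -log10 q of at least 5, 0 to 3 on leaving out 1 sample (3 without control replicate 3 or TGF-β1 replicate 1) and 3 without control replicate 1 and TGF-β1 replicate 3, an alternative chosen after seeing the data. Genes with counts entirely lower, also 0, were 10 per 1000000 reads, 3 as a share of all peaks, 0 to 3 on leaving out 1 sample (3 without control replicate 1) and 6 without both libraries. By limma, collagens passing the adjusted threshold, 0 as reported, were 0 to 4 on leaving out 1 sample. The 4 were out of 33 tested without control replicate 3, where 1526 of 12258 genes passed. Collagens with an unadjusted p below 0.05 by limma were 4 of 34 as reported. At a -log10 q of at least 5 they were 2 of 33, against 751 of 12117 genes. At a fold enrichment of at least 5 they were 2 of 32 (both higher), against 966 of 11344 genes (933 higher). There, 26 of 32 collagen log2 fold changes were above 0, with a median of 0.21, against 0.19 over all genes. Without the filter they were 2 of 36, against 566 of 16229 genes. Leaving out 1 sample gave 1 to 6, with 1 of 34 without TGF-β1 replicate 2, against 621 of 12276 genes. Collagen regions with an unadjusted p below 0.05 by limma were 2 of 81 as reported. Per 1000000 reads they were 6 (0 higher), against 2599 of 41744 over all regions (212 higher). By fold enrichment they were 4 (1 higher), against 1840 of 41744 (847 higher). With peaks in at least 3 samples they were 11 of 190 (7 higher), against 3997 of 98681 (2570 higher). Leaving out 1 sample gave 2 to 11, with 11 of 98 without control replicate 1 (4 higher), against 3079 of 50093 (1550 higher). Without both libraries they were 8 of 114 (3 higher), against 2470 of 54460 (1306 higher). Regions in TGF-β1 samples only, 6 as reported, were 7 to 13 on leaving out 1 sample (13 without TGF-β1 replicate 2, 11 without control replicate 3). Regions in control samples only, 2 as reported, were 1 at a -log10 q of at least 5, 1 at a fold enrichment of at least 5, 2 to 7 on leaving out 1 sample and 9 without both libraries. At a fold enrichment of at least 5, the log2 fold change of Col11a2 was 0.078 and that of Col19a1 0.0164, above 0. Leaving out samples changes how many must concur, and the cause of the other shifts was not tested. For most settings, counts of promoter peaks, non-overlapping genes and regions in 1 group only lack a share over all features and are not compared.

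Same-numbered samples did not deviate together (r of deviations from the group means -0.0464, 0.0432 and -0.130 for numbers 1, 2 and 3). Blocked by replicate number, limma gave 4 collagen genes (543 of all 12291) and 2 regions (1533 of 41744) at an unadjusted p below 0.05. After adjustment, 0 remained. The regions were again those of Col10a1 and Col24a1, and Col6a5 replaced Col17a1. All 3 same-numbered differences were above 0 in 3 collagens and below in 0, with no share over all genes. Depth limits the region values: the median pileup of a peak was 19 to 23 reads.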
